A study of Mus musculus with 6 samples.

Results

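The genes for 4 secreted peptide systems, 9 genes in all of 24809 in the table, were followed in C2C12 cells with and without forced expression of Msx1. They were the peptide genes Cck, Apln, Adm, Nppb and Nppc and the receptor genes Aplnr, Npr1, Npr2 and Npr3. All 9 were found by symbol after FPKM (fragments per kilobase of transcript, scaled to the mapped fragments of the library) had been summed over the transcripts of each gene. The genes were chosen by family with earlier results of these same 6 libraries in view, among them the low FPKM of Cck and Apln in the Msx1 libraries. Their differences between the groups are therefore given as a description without p-values. Counts of members called in the fit over all genes are printed beside the shares of all genes, and nothing is read from them. C2C12 is a mouse myoblast line, and the samples were labelled as myoblasts. Control cells (n = 3), whose columns are headed with the word vector, were compared with cells of the genotype labelled Msx1 overexpression (n = 3). Msx1 is a homeobox transcription factor of undifferentiated mesenchyme. The labels give neither the way Msx1 was introduced nor whether 1 clone or a pool was used, and no time, density or culture medium, so any difference in these between the groups cannot be told apart from that in Msx1. They also do not say whether replicates were separate cultures, so the spread between them may be technical.

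Natriuretic peptides are made as prohormones and signal through receptors that are themselves guanylyl cyclases. Npr1 binds the cardiac peptides encoded by Nppa and Nppb, Npr2 binds the C-type peptide encoded by Nppc, and binding raises cyclic GMP in the target cell. Npr3 binds all of these peptides but has no cyclase domain, and it is known as the clearance receptor because it takes them up for breakdown. Apelin, the product of Apln, acts on the G protein-coupled receptor encoded by Aplnr and is released by muscle and fat. Adrenomedullin, the product of Adm, is a vasodilator that acts on the receptor encoded by Calcrl, whose choice of peptide is set by RAMP partner proteins. Cholecystokinin, the product of Cck, is a gut and brain peptide that acts on the receptors encoded by Cckar and Cckbr.

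Msx1 stood at 7.99, 7.13 and 7.54 FPKM in control and at 1004, 943.7 and 912 FPKM in the libraries labelled Msx1, which follows the labels. Total FPKM per library lay between 390439 and 441835. Setting the totals without Msx1 equal moved the median log2 difference over all genes from -0.067 to 0.031, so small differences depend on the scaling. All 7 myoblast markers listed were above the minimum for testing. They summed to between 238 and 248 FPKM in control and between 258 and 267 FPKM in Msx1 libraries. Where 54.4% of all genes fitted were called, 5 of these markers were, 2 higher and 3 lower. Among these the myogenic factor gene Myf5 fell from 9.01 ± 0.396 to 1.64 ± 0.0968 FPKM (SD, n = 3 each; limma adjusted p = 2.77e-07) and the surface receptor gene Cdon rose from 28.4 ± 4.17 to 79.5 ± 0.889 FPKM (adjusted p = 7.1e-06), while Myod1 was not called (23.3 ± 0.924 and 21.4 ± 0.677 FPKM). The 6 endothelial markers summed to between 0.261 and 0.273 FPKM in control and between 0.523 and 0.948 FPKM in Msx1 libraries, with none above the minimum. The 5 neuroendocrine markers summed to between 0.457 and 0.747 FPKM in control and between 0.317 and 0.373 FPKM in Msx1 libraries, with Snap25 and Insm1 at 0 throughout. The 5 cardiomyocyte markers summed to at most 0.526 FPKM in control and to between 1.64 and 2.92 FPKM in Msx1 libraries, mostly Tnni3, with Myl7 at 0. Of 4 blood cell markers Ptprc and Adgre1 were at 0, Lyz2 rose from 10.3 ± 0.985 to 22.3 ± 2.22 FPKM and Cd68 fell from 3.0 ± 0.366 to 1.05 ± 0.114 FPKM (adjusted p = 3.93e-05 and 6.07e-05). The sum of these 4 lay between 11.8 and 14.3 FPKM in control and between 21.2 and 25.6 FPKM in Msx1 libraries. The part of other cell types in the results was not tested. In RNA from whole cultures, fewer cells that express a gene and less RNA per cell cannot be told apart.

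The promoters of Cck, Apln and Adm are shown because these are the 3 peptide genes above the minimum for testing, of which Cck and Apln differed most between the groups and Adm by less than its spread. Each line gives the 250 bases before the annotated start, 5′ to 3′ on the strand of the gene, from RefSeq in build GRCm38.p6. Cck lies on the minus strand (chr9:121495695-121495944), Apln on the minus strand (chrX:48034854-48035103) and Adm on the plus strand (chr7:110627407-110627656). Capitals mark matches to any of 6 motifs, of which only the Cck window holds one.
Cck: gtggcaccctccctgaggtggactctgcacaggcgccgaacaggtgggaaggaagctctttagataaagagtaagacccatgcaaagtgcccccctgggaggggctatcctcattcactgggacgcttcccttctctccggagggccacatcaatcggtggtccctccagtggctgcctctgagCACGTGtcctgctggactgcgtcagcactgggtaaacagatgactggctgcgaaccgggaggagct
Apln: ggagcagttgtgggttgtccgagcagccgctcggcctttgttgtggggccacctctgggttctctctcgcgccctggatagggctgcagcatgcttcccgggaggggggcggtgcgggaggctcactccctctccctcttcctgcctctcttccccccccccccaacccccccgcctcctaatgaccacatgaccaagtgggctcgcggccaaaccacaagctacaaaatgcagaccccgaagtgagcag
Adm: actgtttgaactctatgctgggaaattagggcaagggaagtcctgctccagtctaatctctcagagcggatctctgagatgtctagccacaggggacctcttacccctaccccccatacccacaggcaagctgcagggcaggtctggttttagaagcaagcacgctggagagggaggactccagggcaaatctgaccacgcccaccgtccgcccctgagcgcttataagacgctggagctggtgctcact

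The motifs were searched on both strands in the same window of the 8 member genes with a RefSeq promoter entry. They were TAATTG (core of many homeobox sites), TGACGTCA (cyclic AMP response element), ACGTG (core of the hypoxia response element), TATAAA (a core promoter box), CAGCTG (an E-box used by MyoD) and CCAAT. The capitals in Cck are a palindrome that begins 66 bases before the start and holds ACGTG on each strand, so that the overlapping matches are 1 place. ACGTG occurs in 16.6% of all 32851 promoter windows of that length. No member window held TAATTG, which 7.2% of all windows hold, or TGACGTCA, which 1.5% hold. TATAAA, in 12.4% of windows, was found in Nppb and Nppc, 31 and 29 bases before the start. CAGCTG, in 13.0% of windows, was found in Nppb and Npr2, and CCAAT, in 33.8%, in Nppc, Npr1 and Npr3. Positions count from the start in the RefSeq promoter entry. For Nppb, Npr1, Npr2 and Npr3 that start lies inside the gene span given below, so it is not the end of that span. The GC content of the windows was 60% in Cck, 65.2% in Apln, 56.8% in Adm and 38.8% in Npr3, against a median of 52.4% over all windows. The Npr3 window (chr15:11907372-11907621) lies within the gene itself, and 0 GENCODE transcripts of Npr3 held the bases read after its start. Its GC content and CCAAT match may therefore not be those of a promoter. The Npr2 window (chr4:43631685-43631934) also lies wholly within the span of its gene, and its CAGCTG match carries that limit. The motif matches are letters in a window and were not tied to binding of any factor.

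Across the 9 genes, Cck, Apln and Npr3 were between 11.1 and 23.6 times lower in the Msx1 libraries, Npr2 was 1.45 times higher, and Adm was at a like level in both groups. Npr1 was low and lower still with Msx1, while Aplnr, Nppb and Nppc stayed under 0.3 FPKM in every library. Of the 9 genes, 5 had a mean of at least 0.5 FPKM over the 6 libraries, the minimum for the fit across genes. In that fit (limma on log2(FPKM + 1), adjusted p under 0.05) 3 of these 5 were called lower, 1 was called higher and Adm was not called. Over all 12371 genes fitted, 54.4% were called, 22% higher and 32.4% lower. The groups did not overlap for 5 of the 9 genes, among them Npr1, which was below that minimum. Over the 12371 genes fitted, all of them at or above the minimum, the share without overlap was 62.3%. The counts come from values that were known when the genes were chosen, and nothing is read from them.

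**Figure D1:**
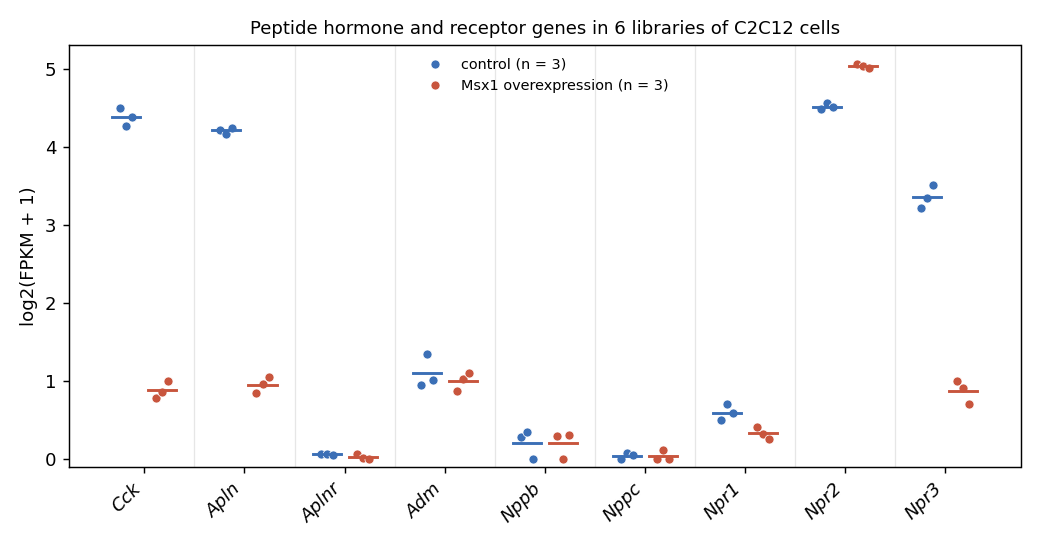
Level of the 9 peptide hormone and receptor genes on the log2(FPKM + 1) scale (vertical axis) in the 3 control (blue) and 3 Msx1 (red) libraries, where points are libraries and lines are group means of the log2 values. Cck, Apln and Npr3 drop from means of 19.9, 17.5 and 9.28 FPKM to means under 1 FPKM, and Npr2 stands at 21.8 and 31.7 FPKM.

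Among the peptide genes, Cck (chromosome 9, 121489824 to 121495694, GRCm38) read 21.62, 18.18 and 19.89 FPKM in the control libraries and 0.721, 0.815 and 0.997 FPKM in the Msx1 libraries. Every Msx1 library lay far below every control library. The means were 19.9 ± 1.72 and 0.844 ± 0.14 FPKM (SD, n = 3 each), 23.6 times lower with Msx1, and the difference on the log2(FPKM + 1) scale was -3.50 (SE 0.09). Of the gene's 2 RefSeq transcripts, 1 held 99.8% of the control FPKM. The receptor genes Cckar and Cckbr and the related peptide gene Gast (gastrin) were listed at 0 in all 6 libraries.

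Apln (chromosome X, 48025146 to 48034853) read 17.62, 16.96 and 17.87 FPKM in control and 0.794, 0.941 and 1.08 FPKM in Msx1 libraries. The control libraries were close to each other and the groups were far apart. The means were 17.5 ± 0.472 and 0.938 ± 0.143 FPKM (SD, n = 3 each), 18.6 times lower with Msx1, with a log2 difference of -3.26 (SE 0.07). The apelin receptor gene Aplnr (chromosome 2, 85136360 to 85139923) was at 0.043, 0.043 and 0.041 FPKM in control and at 0.05, 0.011 and 0 FPKM in Msx1 libraries. These groups overlap, and levels this low rest on few fragments. Apela, the gene for a second ligand of this receptor, was listed at 0 in all libraries.

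Adm (chromosome 7, 110627657 to 110629820) read 0.933, 1.554 and 1.016 FPKM in control and 0.832, 1.044 and 1.15 FPKM in Msx1 libraries. Control replicate 2 was the highest of the 6, and the other libraries of the groups were interleaved. The means were 1.17 ± 0.337 and 1.01 ± 0.162 FPKM (SD, n = 3 each), with a log2 difference of -0.10 (SE 0.12). Without control replicate 2 the sign turned, to 0.02 on the same scale. The natriuretic peptide gene Nppb (chromosome 4, 147985786 to 147987205) read 0.218, 0.273 and 0 FPKM in control and 0.23, 0 and 0.244 FPKM in Msx1 libraries. Nppc (chromosome 1, 86666293 to 86670573) read 0, 0.052 and 0.041 FPKM in control and 0, 0.084 and 0 FPKM in Msx1 libraries. Both genes were listed at 0 in libraries of each group, so no difference was detectable at this depth. The atrial peptide gene Nppa had group means of 0.0525 ± 0.0692 and 0.0861 ± 0.0439 FPKM (SD, n = 3 each).

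The receptor genes differed in opposite directions. Npr3 (chromosome 15, 11839896 to 11907837) read 8.32, 9.13 and 10.39 FPKM in control and 0.999, 0.874 and 0.628 FPKM in Msx1 libraries. All 3 Msx1 libraries were below 1 FPKM and all 3 control libraries above 8. The means were 9.28 ± 1.04 and 0.834 ± 0.188 FPKM (SD, n = 3 each), 11.1 times lower with Msx1, and the log2 difference was -2.49 (SE 0.10). Npr3 has 3 RefSeq transcripts, and the one with the largest share held 58.2% of the gene's FPKM in control. With that transcript alone the log2 difference was -2.21. Gm5144, annotated as overlapping Npr3 on the opposite strand, read 0.643, 0.987 and 1.04 FPKM in control and 0, 0.0587 and 0 FPKM in Msx1 libraries, and without strand its reads and those of Npr3 cannot be told apart where they overlap.

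Npr2 (chromosome 4, 43629015 to 43651437) read 21.3, 22.52 and 21.72 FPKM in control and 32.23, 31.68 and 31.1 FPKM in Msx1 libraries. Each group was tight and the groups did not overlap. The means were 21.8 ± 0.622 and 31.7 ± 0.565 FPKM (SD, n = 3 each), 1.45 times higher with Msx1, and the log2 difference was 0.52 (SE 0.05). One of its 2 transcripts held 91.5% of the FPKM in control and 99.1% with Msx1, and for that transcript alone the log2 difference was 0.63. Npr1 (chromosome 3, 90450591 to 90465928) read 0.41, 0.631 and 0.503 FPKM in control and 0.336, 0.25 and 0.198 FPKM in Msx1 libraries. All Msx1 libraries lay below all control libraries, with means of 0.515 ± 0.111 and 0.261 ± 0.0696 FPKM (SD, n = 3 each), but the gene was below the minimum for the fit. Gm28863, Gm16048 and Gm12473, annotated on the strand opposite to Adm, Npr1 and Npr2, were not analysed here, and without strand their reads cannot be told apart from those of these genes where they overlap.

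The summed FPKM of Npr1, Npr2 and Npr3 was nearly the same in all libraries, 30.0, 32.3 and 32.6 in control and 33.6, 32.8 and 31.9 with Msx1. Its make-up differed. Npr2 held 70.9, 69.8 and 66.6% of the sum in control and 96.0, 96.6 and 97.4% with Msx1. Npr3 held 29.3 ± 2.25% in control and 2.54 ± 0.516% with Msx1 (SD, n = 3 each), and Npr1 held 1.62 ± 0.302% and 0.794 ± 0.192%. The ratio of Npr2 to Npr3 FPKM was 2.56, 2.47 and 2.09 in control and 32.3, 36.2 and 49.5 in Msx1 libraries. FPKM count RNA per length and do not measure receptor protein.

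**Figure D2:**
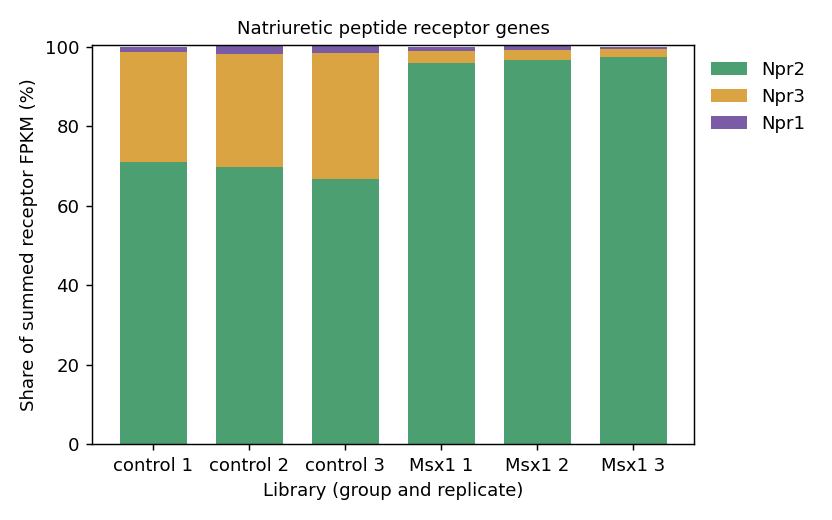
Share of the summed FPKM of the natriuretic peptide receptor genes held by Npr2, Npr3 and Npr1 (vertical axis, percent) in each of the 6 libraries (horizontal axis). The Npr3 share lies between 27.7 and 31.9% in the control libraries and between 1.97 and 2.98% in the Msx1 libraries.

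By level per length, the order in control was Npr2, Cck, Apln, Npr3, Adm, Npr1, Nppb, Aplnr and Nppc. The ranges of Npr2 and Cck overlapped, as did those of Nppb with Aplnr and of Aplnr with Nppc. In Msx1 libraries Npr2 stood alone at the top. Adm, Apln, Cck and Npr3 followed with means between 0.834 and 1.01 FPKM, and each overlapped its neighbour in range. The genes most like a member, by Euclidean distance of log2(FPKM + 1) over the 6 libraries, were Ranbp3l and Aoc3 for both Cck and Apln. Ranbp3l, the nearest to each, was at 17 ± 2.75 and 1.21 ± 0.204 FPKM (distance 0.82 from Cck and 0.56 from Apln; SD, n = 3 each). Npr3 was nearest to Npy1r, a neuropeptide Y receptor gene, at 8.4 ± 0.895 and 0.743 ± 0.0345 FPKM (distance 0.37), followed by Tgm5. Npr2 was nearest to Tle3 (distance 0.04) and Plcd3.

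The genes that work with these peptides were taken from 6 lists written with earlier results of these data known. Of the listed genes 47 reached the minimum and 54 did not, 22 of them listed at 0 in every library. Of the 47 genes, 20 were called higher, 16 lower and 11 not called. Over all genes fitted the shares called were 22% higher and 32.4% lower, as given above. The median difference on the log2(FPKM + 1) scale was 0.05 for the 47 genes and -0.07 for all genes. In the list of natriuretic peptides and their processing, 2 of 3 fitted genes rose, 0 fell and Ide, an insulin and natriuretic peptide protease, was not called. Pcsk6, a proprotein convertase, rose from 12.2 ± 1.29 to 22.5 ± 1.53 FPKM (SD, n = 3 each; log2 difference 0.84, SE 0.08, adjusted p = 8.2e-05). The convertase gene Furin rose from 28.7 ± 0.956 to 40.4 ± 0.485 FPKM (log2 difference 0.48, adjusted p = 8.66e-05). Corin, the protease of the atrial prohormone, and Mme, which encodes the peptide-degrading neprilysin, had means under 0.02 FPKM in each group.

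**Figure D3:**
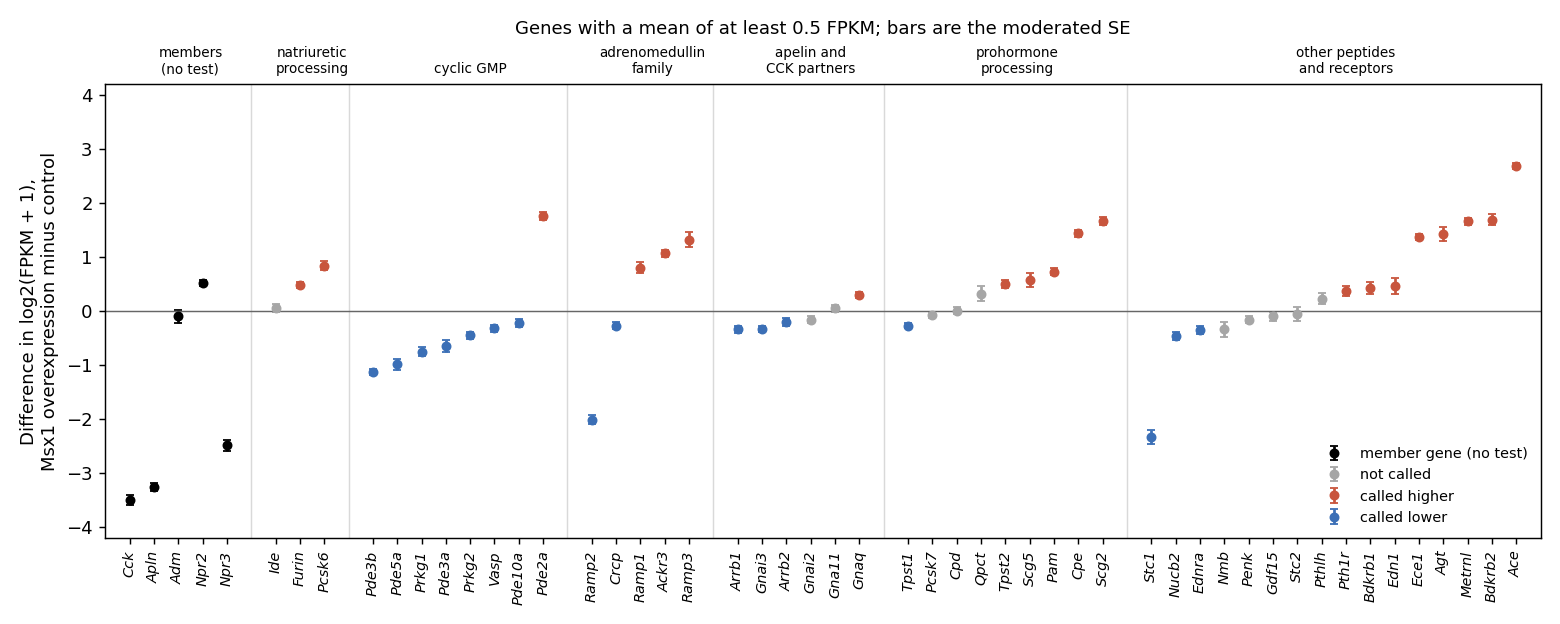
Difference in log2(FPKM + 1), Msx1 overexpression minus control (vertical axis), for the 5 member genes and the 47 related genes above the minimum for testing, ordered by list; bars are the moderated SE. Red and blue points passed at an adjusted p under 0.05 (20 higher, 16 lower), grey points did not, and black points are members, shown without a test.

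Cyclic GMP is the second messenger of Npr1 and Npr2, and 7 of the 8 genes of its handling that reached the minimum were called lower with Msx1. Over all genes fitted 32.4% were called lower and 22% higher. The list held 22 genes, and the median of the 8 was -0.55, with 1 gene higher. Without the minimum 18 genes were fitted, of which 3 were called higher and 7 lower, with a median of -0.02. Under each of 3 other scalings of the libraries, 6 fell and 1 rose, and without control replicate 2, 5 of 7 fitted genes fell. Pde2a, a phosphodiesterase activated by cyclic GMP, rose from 1.6 ± 0.158 to 7.78 ± 0.566 FPKM (SD, n = 3 each; log2 difference 1.76, SE 0.08, adjusted p = 1.12e-06). Pde5a, which encodes the cyclic GMP-specific enzyme, fell from 3.03 ± 0.514 to 1.02 ± 0.118 FPKM (log2 difference -0.99, adjusted p = 0.00013). Pde3b, whose enzyme is inhibited by cyclic GMP, fell from 8.01 ± 0.259 to 3.12 ± 0.00319 FPKM (log2 difference -1.13, adjusted p = 2.25e-06). The kinase gene Prkg1 fell from 0.99 ± 0.221 to 0.179 ± 0.0144 FPKM (log2 difference -0.75, adjusted p = 3.21e-04). Prkg1 reached the minimum only through the control libraries, and only 12 of the 14 refits could fit it. The other kinase gene, Prkg2, was the more abundant and fell from 16.9 ± 0.473 to 12.1 ± 0.966 FPKM. Pde3a, Pde10a and the kinase substrate gene Vasp also fell, by 0.65, 0.22 and 0.32 on the log2 scale. Pde10a was near the threshold (adjusted p = 0.0453) and lost the call in 10 of 14 refits, in which its adjusted p ranged from 0.00505 to 0.251. Those 10 included the fits without control replicate 2 (0.0937), control replicate 3 (0.133), Msx1 replicate 2 (0.148) and Msx1 replicate 3 (0.128). The soluble guanylyl cyclase genes Gucy1a1 and Gucy1b1, which respond to nitric oxide, were listed at 0 in all 6 libraries. Pde9a, another cyclic GMP-specific phosphodiesterase gene, had means of 0.0135 ± 0.0235 and 0.433 ± 0.0387 FPKM and was below the minimum.

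Around adrenomedullin, the RAMP genes changed in different directions while Adm itself was at a like level. In the adrenomedullin and calcitonin family 5 of 11 genes were fitted, of which 3 rose and 2 fell. Ramp2, which with Calcrl forms the main adrenomedullin receptor, read 6.164, 5.475 and 5.881 FPKM in control and 0.60, 0.68 and 0.81 FPKM in Msx1 libraries. It fell by 2.01 on the log2 scale (SE 0.08, adjusted p = 5.25e-07). Ramp3, which also makes Calcrl an adrenomedullin receptor, rose from 1.41 ± 0.522 to 4.93 ± 0.301 FPKM (SD, n = 3 each; log2 difference 1.32, SE 0.14, adjusted p = 1.24e-04), and control replicate 1 was the highest control at 2.01 FPKM. Ramp1, which turns Calcrl into a receptor for the calcitonin gene-related peptide, rose from 0.275 ± 0.104 to 1.22 ± 0.171 FPKM (log2 difference 0.80, adjusted p = 2.4e-04). It was under 0.5 FPKM in every control library and reached the minimum only through the Msx1 libraries, so its call depends on that group. Calcrl itself was low, at 0.313 ± 0.0602 in control and 0.0749 ± 0.0176 FPKM with Msx1, with no overlap between groups and below the minimum. Ackr3, an atypical chemokine receptor that also binds adrenomedullin, rose from 4.68 ± 0.328 to 10.9 ± 0.0147 FPKM (log2 difference 1.07, adjusted p = 4.39e-06). Crcp fell by 0.27 on the log2 scale (adjusted p = 0.00594), a call lost with equal totals without Msx1 (adjusted p = 0.0611).

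**Figure D4:**
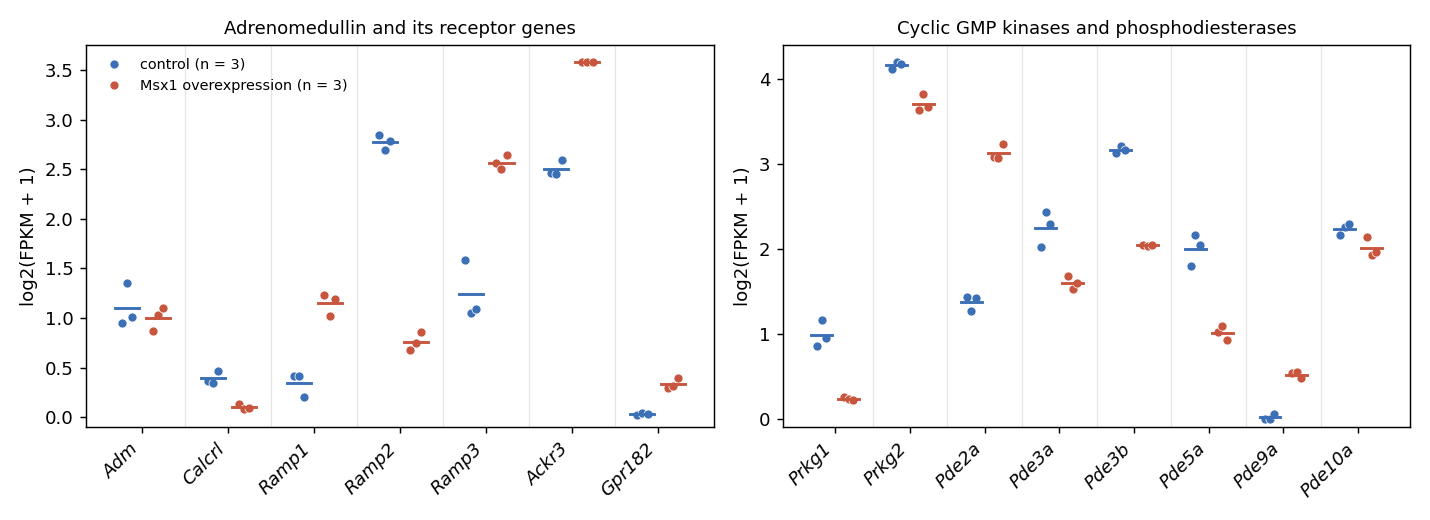
Left, Adm and genes of its receptors; right, cyclic GMP kinases and phosphodiesterases, both as log2(FPKM + 1) (vertical axis) with 1 point per library (3 control in blue, 3 Msx1 in red) and a line at each group mean of the log2 values. Ramp2 and Ramp3 move in opposite directions, from 5.84 to 0.697 and from 1.41 to 4.93 FPKM, and Pde2a rises while Pde3a, Pde3b and Pde5a fall. Pde9a, below the minimum for testing, goes from 0.0135 to 0.433 FPKM.

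Among the genes that work with the apelin and cholecystokinin peptides and receptors, no called difference was beyond 0.34 on the log2 scale in size. With 6 of 12 genes fitted, 3 were lower, 1 higher and 2 without a call. The inhibitory G protein gene Gnai3 fell from 53.4 ± 3.82 to 42.3 ± 1.68 FPKM (SD, n = 3 each; log2 difference -0.33, adjusted p = 0.00331). Its paralog Gnai1, below the minimum, had means of 0.323 ± 0.0567 in control and 0.0544 ± 0.00115 FPKM with Msx1, without overlap. The arrestin gene Arrb1 fell by 0.34 on the log2 scale (adjusted p = 0.00309). Gnaq, the G protein gene used by cholecystokinin receptors, rose from 12.2 ± 0.579 to 15.3 ± 0.848 FPKM (log2 difference 0.30, adjusted p = 0.00464). Arrb2 fell by 0.20 on the log2 scale (adjusted p = 0.0357) and lost the call in 8 of 14 refits, in which its adjusted p ranged from 0.00287 to 0.253. Those 8 included the fits without control replicate 1 (0.0664), without control replicate 3 (0.108), without Msx1 replicate 2 (0.132) and without Msx1 replicate 3 (0.0699).

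The list of prohormone processing and secretory granules held 17 genes with 9 fitted. Of these, 5 were called higher, 1 lower and 3 not called, while over all genes fitted 22% were called higher and 32.4% lower. The 5 include the granule genes Scg2 and Scg5, and the 3 not called are the processing enzyme genes Pcsk7, Cpd and Qpct. Cpe, which encodes the carboxypeptidase that trims basic residues from cut prohormones, rose from 116 ± 7.12 to 316 ± 7.67 FPKM (SD, n = 3 each; log2 difference 1.44, SE 0.06, adjusted p = 8.06e-07). Pam, which encodes the enzyme that amidates peptides such as cholecystokinin and adrenomedullin, rose from 80.5 ± 5.9 to 134 ± 1.67 FPKM (log2 difference 0.73, adjusted p = 3.45e-05). With its most abundant transcript alone the Pam call was lost (log2 difference 0.75, adjusted p = 0.301; range of adjusted p over 14 refits 4.65e-07 to 0.301). The granule protein gene Scg2 rose from 1.53 ± 0.163 to 7.05 ± 0.299 FPKM (log2 difference 1.67, adjusted p = 1e-06). The tyrosine sulfotransferase gene Tpst1 fell by 0.27 on the log2 scale (adjusted p = 0.00203), a call lost with equal totals without Msx1 (adjusted p = 0.0517), and its paralog Tpst2 rose by 0.50 (adjusted p = 4.02e-04). Cholecystokinin is sulfated by these enzymes. Pcsk1, the convertase of endocrine cells, was at 0.424 ± 0.0662 and 0.157 ± 0.0227 FPKM, and the granule genes Scg3, Pcsk1n and the convertase gene Pcsk5 were listed at 0.

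Adm and Apln are known to be induced by low oxygen in many cell types, and 17 hypoxia-inducible genes were therefore listed as well. With 16 of them fitted, 6 were higher, 7 lower and 3 without a call, and the median was 0.01. Ndrg1 rose from 68.4 ± 0.84 to 316 ± 14.4 FPKM (SD, n = 3 each; log2 difference 2.19, adjusted p = 5.88e-08) and the angiogenic factor gene Vegfa from 31.8 ± 2.33 to 82.6 ± 5.29 FPKM (log2 difference 1.35, adjusted p = 2.63e-06). With its most abundant transcript alone the Vegfa call was lost (adjusted p = 0.107; range over 14 refits 6.54e-08 to 0.107). The prolyl hydroxylase genes of collagen went opposite ways, P4ha1 up by 0.47 and P4ha2 down, with a log2 difference of -0.53 (adjusted p = 1.02e-04 and 9.37e-05). The glycolytic gene Pgk1 fell from 501 ± 38.8 to 287 ± 13.9 FPKM, and Car9, a carbonic anhydrase gene, from 9.61 ± 0.536 to 5.59 ± 0.129 FPKM. Hif1a, the oxygen-regulated subunit, had a log2 difference of -0.37 (adjusted p = 0.0116), but this call was lost with equal totals without Msx1 (adjusted p = 0.0936), and with its most abundant transcript alone the sign turned (0.28, adjusted p = 0.244).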

How the data were processed

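RNA was isolated with Trizol from 3 control and 3 Msx1 samples and sequenced after a NEBNext Ultra library kit, per the labels' protocols. The authors deposited 1 table of FPKM with 1 column per sample and 38468 RefSeq transcripts. Trimmomatic, HISAT2 and StringTie are named with GRCm38 (mm10), per the submitters' processing notes; their versions and settings, the read type and any use of strand are not given in the sources. Control columns were matched by their number to the control samples. Symbols came from a RefSeq table of GRCm38.p6 (38193 transcripts) and GENCODE M21 (156 more), and 119 transcripts kept their identifier. Transcript FPKM rest on an estimated division of reads, and all FPKM are relative to the library total.

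The fit was limma 3.58.1 (R 4.3.3) on log2(FPKM + 1) over the 12371 genes whose mean over the 6 libraries reached 0.5 FPKM, with an intensity trend, Benjamini-Hochberg adjustment and a threshold of 0.05, and was tested on simulated data. The log2(FPKM + 1) scale understates differences of low genes; ratios are of group mean FPKM. Read numbers were not used here. Low FPKM multiplied by transcript length gave a best step of 36.9 to 47.6 M (mega) counted units per library, where fragments and single mates cannot be told apart, but 40.0 to 44.3% of those values lay within 0.1 of a whole multiple, so whole reads were not recovered and depth is uncertain. Members, lists and rules were chosen with earlier results of these data known. Besides the members and Msx1, the up to 3 largest called differences in each direction were named per list, with the 2 nearest genes per fitted member (those of Adm are not reported here), and other genes were named after their values were seen. Of the 36 related genes called, 22 overlap another annotated gene. For 17 of them such a gene is on the opposite strand, among them Ace, Pcsk6, Furin, Pam, Ramp3 and Pde5a. Ramp2, Pde2a, Prkg2, Tpst1 and Arrb2 overlap a gene on the same strand only. Reads of any such pair cannot be told apart where the genes share bases.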

Additional observations from a re-analysis of the deposited data

How the results depend on the processing

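Over 14 alternatives (another pseudocount, no filter, 3 scalings, array weights, the replicate block, the most abundant transcript and leaving out each of 6 libraries), genes called higher numbered 2266 to 3514 and genes called lower 2807 to 5256, against 2718 and 4014 in the fit reported. The higher share of the calls was 40.4% with FPKM as deposited, 51.3% after median-of-ratios scaling, 45.8% after quantile normalization and 55.5% with equal totals without Msx1. Related genes called higher numbered 18 to 23 and called lower 12 to 20, against 20 and 16. Cck ranged from -4.41 to -3.42, Apln from -4.09 to -3.18, Npr3 from -3.34 to -2.21 and Npr2 from 0.50 to 0.63 on the log2 scale, with the lowest values of the first 3 at a pseudocount of 0.1. Of 44 other genes refitted (Msx1, those of the naming rule and 12 added after seeing the data), 37 kept their call in every alternative that could fit them. Hif1a alone turned sign, to 0.28 with the most abundant transcript, and the cause was not tested. Calls of Arrb2, Pde10a, Pam, Vegfa, Crcp, Tpst1 and Hif1a were lost in at least 1 alternative. In the fit with the replicate block 2692 genes were called higher and 4055 lower, and 20 and 15 related genes. Same-numbered libraries correlated in their deviations with r of 0.055, 0.226 and 0.037 across genes, and differently numbered ones with r between -0.204 and 0.133. These values do not settle whether the numbers pair samples. The labels name no pairing, and the fit reported leaves it out. Levels below 0.5 FPKM limit what Nppb, Nppc, Aplnr, Npr1 and Calcrl can show.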

Other observations

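Other peptide hormones and vasoactive peptides with their receptors, 32 genes of which 16 were fitted, had 8 higher, 3 lower and 5 not called, with a median of 0.30 on the log2(FPKM + 1) scale against -0.07 for all genes. Ace, which encodes the angiotensin-converting enzyme, rose from 1.38 ± 0.0497 to 14.4 ± 0.316 FPKM (SD, n = 3 each; log2 difference 2.69, SE 0.06, limma adjusted p = 3.86e-08). The bradykinin receptor gene Bdkrb2 rose from 1.48 ± 0.322 to 6.98 ± 0.186 FPKM (log2 difference 1.69, adjusted p = 4.66e-06) and Metrnl, which encodes a secreted protein, from 16.9 ± 1.01 to 55.5 ± 1.63 FPKM. Agt, the angiotensinogen gene, rose from 2.36 ± 0.63 to 7.92 ± 0.0823 FPKM and Ece1, the endothelin-converting enzyme gene, from 25.6 ± 1.52 to 67.5 ± 0.598 FPKM, while the angiotensin receptor genes Agtr1a and Agtr1b were listed at 0 in all libraries. Stc1, which encodes the hormone stanniocalcin-1, fell from 23.6 ± 4.86 to 3.8 ± 0.229 FPKM (log2 difference -2.34, adjusted p = 2.92e-06). Nucb2, the precursor gene of nesfatin-1, and the endothelin receptor gene Ednra fell by 0.46 and 0.35 on the log2 scale. Fndc5, the precursor gene of irisin, was at 0.894 ± 0.0426 and 0.0885 ± 0.0112 FPKM, without overlap and below the minimum.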
